A study of Mus musculus with 6 samples.

Results

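The baseline transcriptome of control T cells from lymph nodes, the Ezh2 fl/fl arm of a study of Ezh2 deficiency, is described here. The series holds 6 single-colour Affymetrix mouse arrays of total RNA, and the 3 arrays labelled as Ezh2 fl/fl were used. The other 3, of Ezh2 deficient T cells, entered no comparison. In the usual notation fl/fl marks alleles carrying loxP sites that a Cre recombinase can excise. The labels name no Cre driver, strain, age, sex or sorting step for the mice, and give no number of animals behind the 3 samples, so part of the spread between these can be technical.

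Of the 45101 probe sets on the array, 34945 carried exactly 1 gene symbol and were no array controls, and these measured 18193 genes. Each gene was represented by its brightest probe set. Values are intensities in arbitrary units after quantile normalisation over the 3 arrays, listed as replicates 1, 2 and 3 or as mean ± SD (n = 3). With a single group there was no contrast to test, and spread is given as the coefficient of variation (CV), the SD as a percentage of the mean. The number of arrays limits the precision. An intensity depends on the probes as well as on the transcript, so ranks order signals and not numbers of transcripts.

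T cells that leave the thymus recirculate through lymph nodes, which they enter with the help of the chemokine receptor Ccr7 and leave by way of sphingosine phosphate receptors. While resting they depend on interleukin 7 and on weak contacts of the T cell receptor with self, divide rarely, and keep effector genes silent. Part of that silence, and that of embryonic regulators, is the known work of Polycomb proteins: Ezh2 adds methyl groups to lysine 27 of histone H3 as a member of Polycomb repressive complex 2.

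The 3 arrays were close to each other, and replicate 1 stood slightly apart. Spearman's rho across all genes was 0.969 to 0.972 for the 3 pairs of arrays, a description over genes that share the same libraries. Among genes above background, 11 differed over 2-fold between replicates 2 and 3, against 42 between replicates 1 and 2 and 30 between replicates 1 and 3. Median deposited intensities were 188.1, 169.7 and 168.7. The ratio of 3′ to 5′ signal for beta-actin, a sign of RNA quality, was 1.18, 1.16 and 1.18. For Gapdh it was 0.703, 0.767 and 0.780, lowest in replicate 1.

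No detection calls were used here, and a background level was derived from the values. It was set at 365, the 95th percentile of 66 measured genes restricted to other tissues, such as Alb of the liver at 101, 92 and 144. A gene was taken as above background where all 3 arrays exceeded that level. By this measure 7247 genes (39.8%) were above background, 10044 lay at or under it on every array, and 902 were mixed. Of the 66 reference genes, 2 were themselves above it, Krt10 at 573, 509 and 542 and Sftpb at 687, 381 and 401.

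The labelled T cell identity was borne out by its markers on every array. Cd3e, the epsilon chain of the signalling module of the T cell receptor, read 6641, 6802 and 6571. The coreceptor Cd8a, which binds MHC class I, read 9852, 9735 and 9149.9, and the MHC class II coreceptor Cd4 read 2951, 2063 and 2357. The cytotoxic and the helper lineage were thus both represented, and their coreceptor levels cannot be set against each other because they come from different probes. Ccr7 read 6283, 5458 and 6170.0 and Il7r, the interleukin 7 receptor alpha chain, 9095, 9144 and 10522. All 5 markers exceeded the background level on every array and occupied ranks 203 (Il7r) to 1629 (Cd4) of 18193. Cd4 was the least even of them, highest in replicate 1, with a CV of 18.4% against 1.78% for Cd3e.

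**Figure D1:**
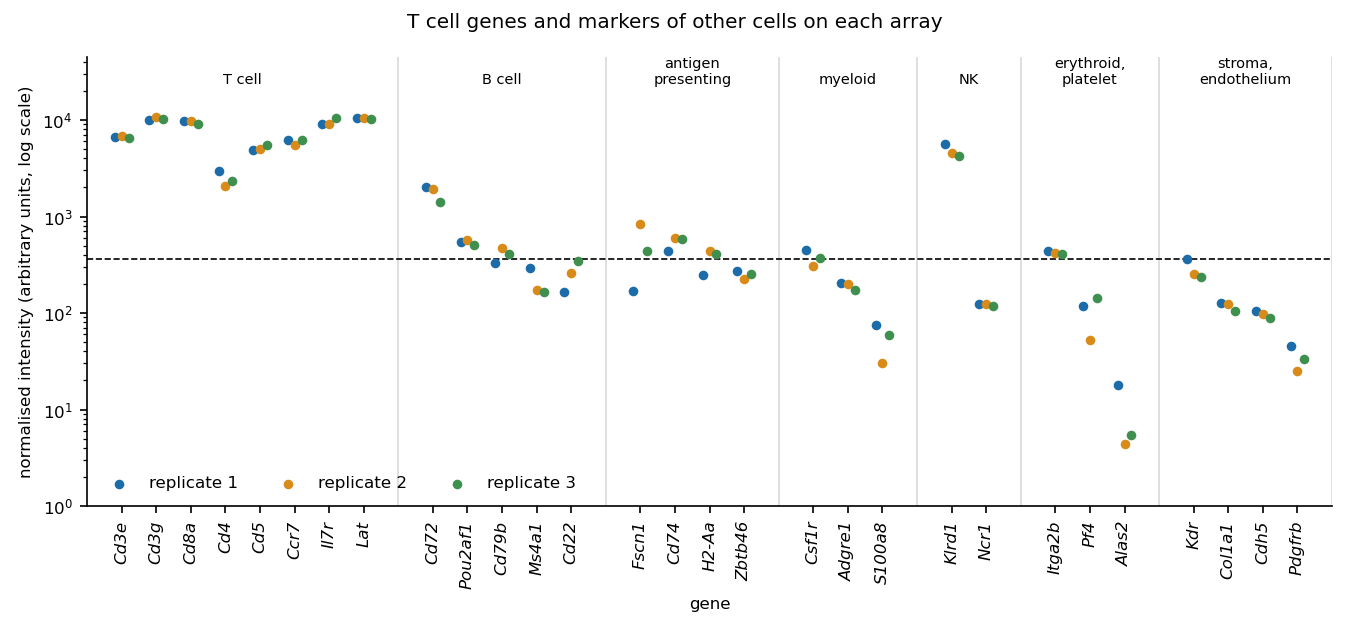
Normalised intensity (log scale) of T cell genes and of markers of other cell types on each of the 3 arrays, 1 point per array, with the background level of 365 as a dashed line. The T cell genes lie between 2063 and 10865, while most markers of other cells lie near or under the dashed line, apart from Cd72, Klrd1 and a few weak signals.

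Markers of other lymph node cells were largely at background, where 39.8% of all genes were above it. Among B cell markers, 3 of 20 were above it, and the defining genes Cd79a at 119.6, 105 and 54.6 and Ms4a1 at 295, 174 and 163 were not. The summed level of that list was 16191, 15744 and 16846, most of it from Ighm, the immunoglobulin mu heavy chain. Dendritic cell and MHC class II markers had 3 of 16 above background, H2-DMa, the brightest with a mean of 1004, Cd74 and H2-Eb1. The defining Itgax at 159, 115 and 139.7 and Zbtb46 at 270.1, 227 and 254 were not. The list's summed level was 3969, 4884 and 3987, highest in replicate 2, where the actin-bundling protein Fscn1 of mature dendritic cells read 169, 840.1 and 439. The MHC class II gene H2-Aa at 248, 442 and 408 and its invariant chain Cd74 at 443, 599 and 588 were both lowest in replicate 1.

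Monocyte and macrophage markers had 1 of 18 above background, the transcription factor Cebpb at 1120.1, which is not confined to myeloid cells, while Csf1r read 448, 308 and 371 and Adgre1 205, 198 and 172. None of the 12 measured granulocyte and mast cell markers was above it, and S100a8 read 74.6, 30.2 and 59.8. Among natural killer markers, 2 of 10 were, Klrd1 at 5631, 4556 and 4218 and Eomes at 759, 1095 and 901, both of which CD8 T cells also express, whereas the defining receptor Ncr1 read 124, 125 and 119. Erythroid and platelet markers had 1 of 12, the integrin Itga2b at 435, 414 and 407, with Pf4 at 119, 52.5 and 142 and Alas2 at 18, 4.400 and 5.43. Stromal and endothelial markers had 1 of 17, the smooth muscle actin Acta2 at 606, 623 and 677, with Col1a1 at 126, 123 and 104 and Kdr at 359, 255 and 237. Of the gamma delta, NKT and innate-like T cell markers, 2 of 6 were above background, beside 39.8% of all genes. They were Maf at 1213, 1524 and 1193 and the scavenger receptor Cd163l1 at 837, 455 and 392, highest in replicate 1. Sox13 read 209.9, 157 and 189.5. In bulk RNA, fewer cells of a type and less RNA per cell cannot be told apart, so these levels give no cell counts.

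Ighm stood out from the other B cell genes, and its probe sets disagreed. The brightest read 10522, 10537 and 11942 and another 7178, 5792 and 7129.6, while the other 9 probe sets named Ighm read 665 or less on every array. Cd72, a B cell coreceptor, read 2013, 1907 and 1411, and Pou2af1, the octamer coactivator, 542, 577 and 508. What the 2 bright Ighm probe sets detect in these cells was not tested.

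**Figure D2:**
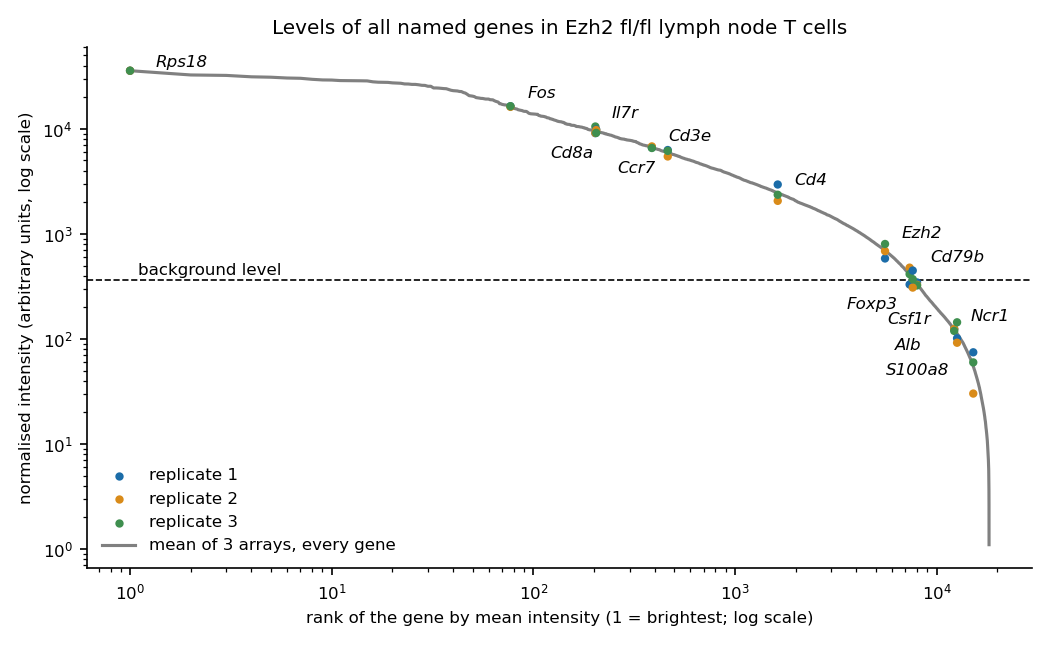
Normalised intensity (log scale) of every named gene against its rank (log scale), as the mean of 3 arrays (grey line), with the 3 replicates of selected genes as points and the background level of 365 as a dashed line. Ribosomal protein Rps18 leads at 35761, the T cell markers sit at ranks 203 to 1629, and Ezh2 lies at rank 5547, above the dashed line.

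The brightest end of the transcriptome belonged to protein synthesis and the cytoskeleton. Of the 40 brightest genes, 31 encoded cytosolic ribosomal proteins, led by Rps18 at 35761, 35761 and 35761 and Rpsa at 31881, 32916 and 32916. The others included the elongation factor Eef1a1 at 30468 ± 619, the translationally controlled protein Tpt1 at 28766 ± 1092, the thymosins Tmsb10 at 28700.0 ± 426 and Tmsb4x at 27676 ± 273, beta-actin (Actb) at 25423 ± 1093 and the MHC class I light chain B2m at 23311 ± 898. Ms4a4b, a T cell membrane protein, stood among them at 23437, 23908 and 23660.3. Limd2, at 24499.6 ± 125, and Shisa5, at 24090.5 ± 427, completed them. Other probe sets of Limd2 averaged 13273, 4006 and 652.

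The signal was spread over many genes. The 10 brightest held 1.82% of the summed intensity, the 40 brightest 6.44%, the 100 brightest 12.6% and the 1000 brightest 44.9%. The top was much the same on each array: 91 genes were among the 100 brightest on every array and 109 on at least 1. The CV of the 40 brightest was at most 7.69% here, and 4.06% to 12.4% on the deposited scale. Quantile normalisation gives the top ranks nearly equal values, and Rps18, brightest on every array, had a CV of 0% by construction.

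The bases just upstream of the start are shown for 5 genes picked, with their values known, to illustrate promoters described further on. Each sequence below ends at the base before the annotated start (RefSeq, GRCm38.p6), written 5′ to 3′ on the gene's strand. Capitals mark TATAAA on that strand and, on either strand, GGGCGG (a GC box), GGAAGT (an ETS core), TGTGGT (a RUNX core) and CCAAT, each searched for by itself. Rpsa (chr9:120127616-120127765, + strand) stands for ribosomal proteins, Ms4a4b (chr19:11443408-11443557, + strand), Cd3e (chr9:45009612-45009761, − strand) and Il7r (chr15:9529877-9530026, − strand) for bright T cell genes, and Neurog1 (chr13:56252181-56252330, − strand), a neuronal regulator at 26, 43.97 and 27.7, for developmental genes at background.
Rpsa: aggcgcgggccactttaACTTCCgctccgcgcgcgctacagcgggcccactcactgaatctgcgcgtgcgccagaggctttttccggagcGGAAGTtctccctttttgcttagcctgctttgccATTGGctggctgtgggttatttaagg
Ms4a4b: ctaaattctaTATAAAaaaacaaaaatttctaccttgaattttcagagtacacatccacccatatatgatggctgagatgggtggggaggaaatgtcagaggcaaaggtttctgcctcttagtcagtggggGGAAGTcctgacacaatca
Cd3e: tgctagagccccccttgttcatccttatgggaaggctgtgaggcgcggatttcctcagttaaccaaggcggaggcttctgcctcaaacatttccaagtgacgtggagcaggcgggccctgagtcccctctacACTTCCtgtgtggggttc
Il7r: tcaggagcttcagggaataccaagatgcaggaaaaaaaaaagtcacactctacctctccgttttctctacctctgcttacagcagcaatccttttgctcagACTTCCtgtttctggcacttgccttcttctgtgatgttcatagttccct
Neurog1: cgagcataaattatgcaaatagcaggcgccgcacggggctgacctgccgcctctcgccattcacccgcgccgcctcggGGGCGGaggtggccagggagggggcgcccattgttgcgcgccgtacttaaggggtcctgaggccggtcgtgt
In the 300 bases from 250 before to 50 after the start, Rpsa had 29 CpG dinucleotides and Neurog1 32, while Cd3e had 8, Il7r 1 and Ms4a4b 0.

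All 23 measured genes of the receptor complex, coreceptors and T cell surface were above background, with means from 1474 to 20465 and a median rank percentile of 97.9, where 39.8% of all genes were above background. The glycoprotein Cd52 read 21047, 20321 and 20027, the phosphatase Ptprc (CD45) 18751, 18603 and 19475 and the receptor delta chain Cd3d 16060.2, 16416 and 16994. Cd3g read 10122, 10865 and 10216, Cd8b1 12161, 11974 and 12027 and Thy1 12899, 11478 and 11631. The 3 arrays lay within a narrow band for each of these genes. The dimmest member was Cd7, at 1360.1, 1624 and 1437, whose product is a costimulatory surface protein.

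Signalling proteins downstream of the receptor were also all above background, 37 of 37 measured, beside 39.8% of all genes, at a median percentile of 92.2. The brightest were the diacylglycerol kinases Dgka at 13309, 12929.8 and 13260.1 and Dgkz at 11519, 11446 and 12419, which restrain receptor signalling by removing diacylglycerol. The adaptor Lat, the platform on which signalling complexes assemble, read 10565, 10497 and 10247. The adaptor Fyb read 6442 ± 504, protein kinase C theta (Prkcq) 5217 ± 245, and the phosphatases Ptpn22 4653 ± 530.0 and Ptpn6 4624 ± 544. Grap2 (626 ± 35.3), Ubash3b (558 ± 42.9) and Skap2 (477 ± 45.7) were the dimmest.

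Genes of recirculation and quiescence were likewise all above background, 31 of 31 measured, beside 39.8% of all genes, at a median percentile of 97.5. The antiproliferative gene Btg1 read 21133, 18075 and 18402, the transcription factor Ets1 17167, 15465 and 16589, and Klf2, which sustains the exit receptors of naive cells, 11338, 10718 and 11519. The chromatin organiser Satb1 read 11040.3 ± 321 and the integrin chain Itgb2 10535 ± 254. Some members differed between arrays: Dapl1 read 9637, 4467 and 7428, Ramp1 2371, 3964 and 4836 and Slfn2, which guards quiescence, 5135, 2684 and 5038, with CVs of 36.1%, 33.6% and 32.4%. Igfbp4, an insulin-like growth factor binding protein, read 13449.7, 16006 and 11778, with a CV of 15.5%. Foxo1, which drives Il7r and Klf2, read 4618, 4656 and 5644. Elf4 at 683 ± 71.2 and Tsc1 at 816 ± 46.6, both brakes on proliferation, were the dimmest and remained above background.

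**Figure D3:**
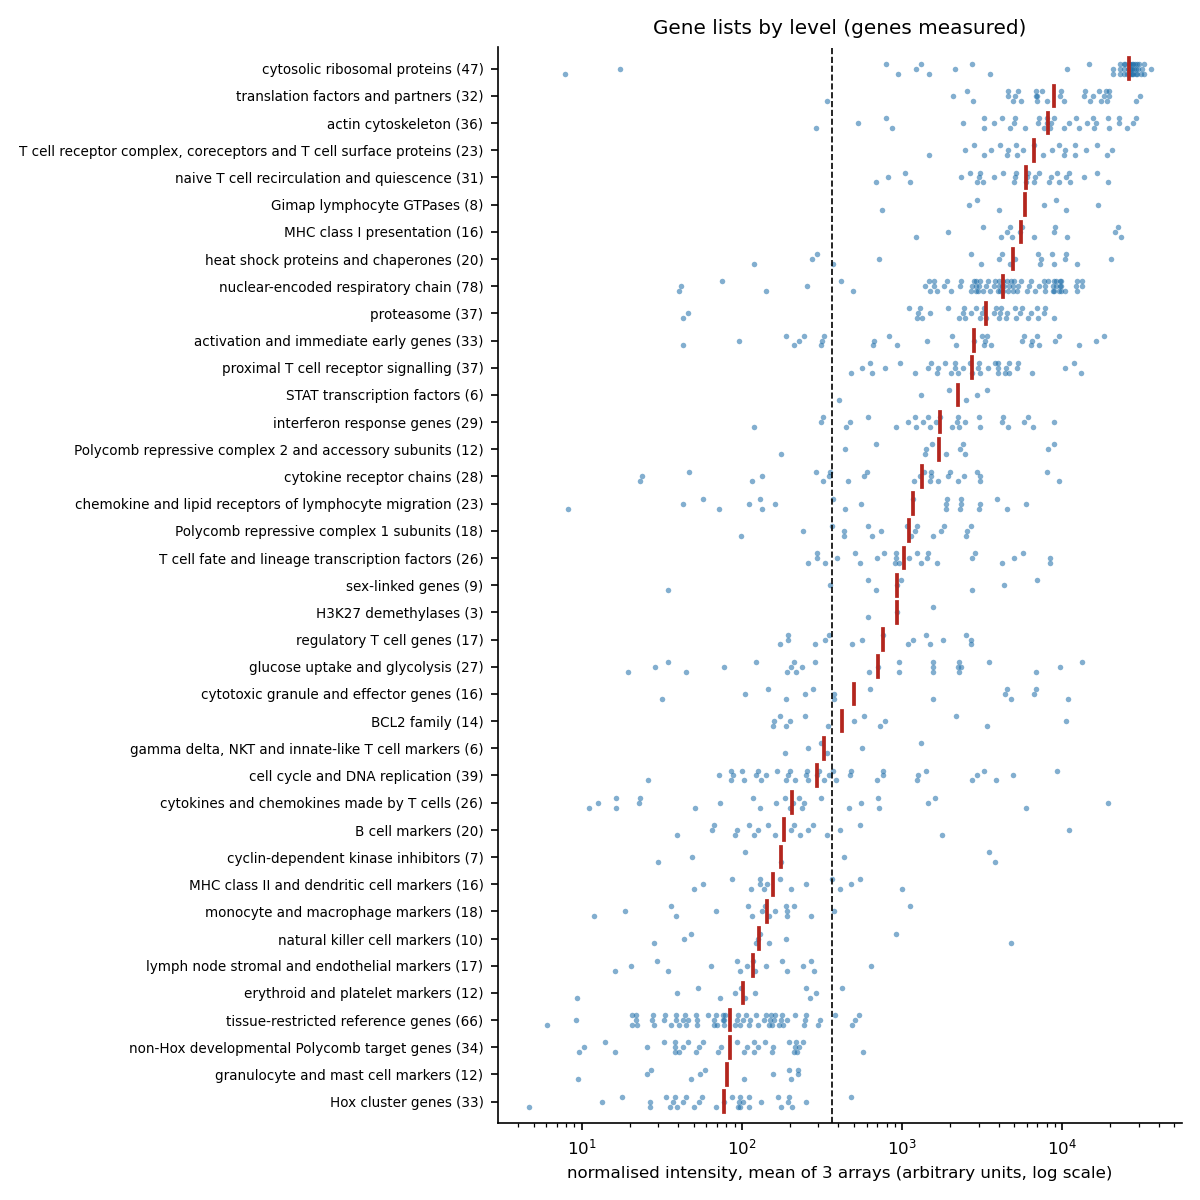
Mean normalised intensity of 3 arrays (log scale) for the measured genes of 39 lists, 1 point per gene, red bars for list medians and a dashed line at the background level of 365. Ribosomal proteins have the highest median, at 25962, T cell receptor genes sit at 6672, and Hox genes, granulocyte markers and developmental Polycomb targets have medians at or below 84.0, near the 84.5 of the tissue-restricted reference genes.

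Receptors for cytokines and chemokines were expressed selectively. Of the cytokine receptor chains, 19 of 28 were above background, beside 39.8% of all genes. Beside Il7r stood Tgfbr2, a receptor for the inhibitory cytokine TGF-beta, at 7918, 7838 and 8492, then Il17ra at 3077 ± 181, Ifngr1 at 3049 ± 224 and Il27ra at 2918 ± 415. The shared interleukin 2 and 15 receptor chain Il2rb read 1055, 1519 and 1333, whereas the high-affinity chain Il2ra, which activated and regulatory T cells carry, read 286, 416 and 341 and straddled background. Lifr, Il1r1 and Il9r were at 46.7, 23.9 and 22.98.

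Of the chemokine and lipid receptors, 14 of 23 were above background, beside 39.8% of all genes, with Ccr7 the brightest. The sphingosine phosphate receptors S1pr4 and S1pr1 read 3925, 4102 and 3764 and 2737, 1906 and 2333, and Gpr18 4779, 4526 and 4238. Several of these receptors differed between arrays. Cxcr4, the receptor for the stromal chemokine Cxcl12, read 1570.0, 3531 and 4104, lowest in replicate 1, and Ccr9, which directs T cells to the gut, read 3732, 1810.4 and 3556, lowest in replicate 2, as on another pair of its probe sets at 898, 619 and 1075 and 736, 384 and 707. Its remaining probe sets, under background, read 115, 247 and 313 and 137, 194 and 146 and did not share that order. Cxcr6 and Cxcr3, receptors of effector and memory T cells, read 2625, 1213 and 1791 and 1303, 2533 and 1794, and were lowest in replicates 2 and 1. The dimmest of the list were Ccr8, Ccr3 and S1pr5, averaging 57.4, 42.6 and 8.200.

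Of the cytokines and chemokines that T cells can make, 8 of 26 were above background, beside 39.8% of all genes, at a median percentile of 46.1. Ltb, the membrane lymphotoxin chain that shapes lymphoid organs, read 19330.0, 19240.1 and 19064, Il16 5523, 6034 and 6191 and Tgfb1 1524, 1709 and 1599. Lta and Tnf, its relatives, read 718 ± 60.96 and 711 ± 120.4. The hallmark effector cytokines stayed at background: Ifng read 184, 273 and 225, Il4 205, 243 and 151 and Il2 7.37, 37.5 and 23.1. Il3, Il5 and Csf2 averaged 11.1, 12.6 and 16.4. The chemokine Ccl5 read 661, 2688 and 979, highest in replicate 2.

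Of the cytotoxic genes, 8 of 16 were above background, beside 39.8% of all genes, and their levels ran from 31.7 to 10852. High among them were the granule proteoglycan Srgn at 10109, 11239 and 11207, the granule membrane protein Nkg7 at 6529, 7389 and 6675 and the cathepsin Ctsw at 5947, 7294 and 6836. Perforin (Prf1), the pore-forming protein, read 1750.1, 1534 and 1362. Of the granzymes, Gzmk read 388, 423 and 317, above the level on 2 arrays, while Gzma at 136, 216 and 218, Gzmb at 162, 194 and 83.03 and Gzmc, averaging 31.7, were under it. Nkg7 and Ctsw are made by CD8 T cells and natural killer cells alike.

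Regulatory T cell genes were at intermediate levels, with 11 of 17 above background, beside 39.8% of all genes, at a median percentile of 71.2. Foxp3, the lineage factor, read 345, 327 and 323, just under background and closely alike on the arrays. Tnfrsf18 (GITR) read 2787, 2695 and 2581, Ikzf2 (Helios) 1688, 1759 and 1925, the inhibitory receptor Ctla4 1530.4, 1558 and 1423 and Tnfrsf4 (OX40) 1471, 1401 and 1356. The integrin Itgae at 3275, 1966 and 2795, the folate receptor relative Izumo1r at 2005, 2997 and 2561 and Gpr83 at 766, 1367 and 1353 were less even, Itgae being highest and the other pair lowest in replicate 1. Several of these genes are also expressed by conventional T cells.

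Of the activation and immediate early list, 24 of 33 were above background, beside 39.8% of all genes, at a median percentile of 92.5. The AP-1 subunit Fos read 16393, 16180.2 and 16416, at rank 77, with Jund at 10462, 8943 and 9348, Jun at 7228, 6896 and 7348 and Junb at 7306, 5669 and 6427. Nfkbia, the inhibitor that NF-kappaB itself induces, read 17649, 18344 and 18344, the phosphatase Dusp1 9462, 8177 and 9417 and the early activation antigen Cd69 7234, 6708 and 6789. Of these, Fos, Jun, Junb and Dusp1 are induced within minutes of a stimulus. None of the 7 genes differed over 1.5-fold between arrays. The costimulatory receptor Icos read 1782, 2415 and 1934 and the adhesion receptor Cd44 970.3, 1070.5 and 749. Members not above background included the immediate early genes Nr4a2 at 396, 215 and 361 and Nr4a3 at 209.8, 359.6 and 374. The dimmest were the checkpoint receptors Lag3 at 224, 180.3 and 162 and Havcr2 (TIM-3) at 65.8, 119.7 and 101 and the immediate early gene Atf3 at 21.4, 41.9 and 64.97.

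Heat shock genes gave a mixed picture, beside 39.8% of all genes above background. 15 of 20 were above background, led by the constitutive chaperone Hspa8 at 19885, 21509.7 and 19406 and the chaperonin subunits Cct2 (12317 ± 467) and Cct3 (10512 ± 291). The inducible Hspa1a read 88.6, 199 and 70.5 and stayed at background. Dnajb1, a stress-responsive cochaperone, read 3624, 7433 and 4179 on its brightest probe set and 3473, 4489 and 3003 on another, both highest in replicate 2.

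Transcription factors of T cell identity were expressed at various levels, 21 of 26 above background, beside 39.8% of all genes. Ikzf1 (Ikaros) read 8478, 8545 and 8254, Bcl11b, which holds T cell commitment, 9626, 7470.5 and 7904, and the Runx partner Cbfb 5321, 6084 and 5695. Runx3, which directs the CD8 fate, read 1332, 1956 and 1682. Among factors of effector differentiation, Id2 read 5157, 4236 and 5691 and Eomes was above background. The dimmest of the list, all under it, were Tbx21 (T-bet) at 209, 342 and 325, Prdm1 (Blimp-1) at 268, 287 and 331 and Zbtb16 (PLZF) at 274, 198 and 304. All 6 measured STAT genes were above background, from Stat3 at 3371, 3609 and 3120.0 to Stat2 at 373, 412 and 418.

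Interferon response genes had 25 of 29 above background, beside 39.8% of all genes, at a median percentile of 86.4. Several of these genes differed between arrays. Their summed level was 65132, 68983 and 81899.8, highest in replicate 3. The GTPases Ifi47 at 8472, 9004 and 8974 and Igtp at 5969, 6852 and 6943 differed little. Ifi27l2a at 4608, 5952 and 7891, Ifit1 at 877, 1163 and 2029, Ifit3 at 944, 922 and 1792 and Rsad2 at 540.2, 367 and 939.8, antiviral effectors, were highest in replicate 3. Isg20 at 985, 1424 and 2075 and Irf7 at 2230.3, 1488 and 3069 had the same maximum. For members above background, the deviation of each array from the gene's own log2 mean over the 3 arrays was taken. Its median over members was -0.10, -0.01 and 0.15 for replicates 1, 2 and 3. Over all genes above background it was -0.01, 0.00 and 0.00.

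Antigen presentation and housekeeping machinery filled much of the upper range. The share of all genes above background was 39.8%. All 16 MHC class I genes were above background, with H2-K1 at 21870.1, 21724 and 22871 and H2-D1 at 20776, 21663 and 21509.7. All 8 Gimap genes, lymphocyte GTPases that support survival, were too, from Gimap4 at 15393, 17726 and 17167 to Gimap5 at 844, 684 and 731. Actin cytoskeleton genes had 35 of 36 above background, among them Coro1a, which lymphocytes need to survive and migrate, at 22141, 22819.7 and 22919.6. The H2 genes are near-identical relatives, so their probe sets may share signal.

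Ribosomal proteins had the highest median of the lists with the probe sets used here, and not without those ending in _s_at, _x_at or _a_at, where their median percentile was 79.8 against 98.5 for the T cell receptor list. Of 83 ribosomal proteins listed, 47 were measured here, and the values cover these alone. They had 45 of 47 above background, beside 39.8% of all genes, at a median of 25962 and held 5.80% of the summed intensity. The exceptions were Rps16, with its 1 named probe set at 30.8, 10.6 and 10.3, and Rpl3l, a muscle form, at 6.23, 6.42 and 10.8. Translation factors had 31 of 32 above background, with the muscle and neuronal form Eef1a2 under it at 337, 377 and 299.

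The energy genes were uneven. Nuclear-encoded respiratory chain genes had 72 of 78 above background at a median percentile of 95.8, with Cox6a1 at 13362 ± 445, and those under it included the tissue-restricted forms Cox7a1, Cox6b2 and Cox8b. Glycolytic genes had 15 of 27 above background, beside 39.8% of all genes, at a median percentile of 70.0. That percentile was 50.9 without probe sets ending in _s_at, _x_at or _a_at, and 77.0 with the mean of all probe sets. Bright members were Pgk1 at 13068, 13339 and 13169.5, Ldha at 9087, 10294 and 9852 and Aldoa at 6544, 7059.8 and 6996. Pkm read 3496, 3434 and 3549. Pgk2 of the testis and Slc2a2 of the liver averaged 19.3 and 28.5. Proteasome genes had 35 of 37 above background, without the thymic and testicular subunits Psmb11 and Psma8.

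Of the cell cycle and DNA replication genes, 14 of 39 were above background, close to the 39.8% of all genes, at a median percentile of 53.8. The 8 brightest were Pcna, Cdt1 and 6 Mcm genes. The sliding clamp Pcna read 8589.6, 9839.9 and 9526, and the helicase subunits Mcm7 4681, 4971 and 5157 and Mcm2 3498, 3205 and 3021. Mcm6 read 1899, 1168 and 1137, highest in replicate 1. The proliferation antigen Mki67 read 430.1, 417 and 320.2, the topoisomerase Top2a 415, 510.2 and 493, above background, and the mitotic kinase Cdk1 178, 224 and 196. The dimmest were the checkpoint kinase Bub1 at 79.4, 104 and 71.9, the thymidylate synthase Tyms at 53.8, 40.1 and 123 and E2f8 at 6.900, 19.9 and 50.6. Of the CDK inhibitors, 3 of 7 were above background, Cdkn2d at 3919.6, 3733 and 3833, Cdkn1b (p27), a brake of resting lymphocytes, at 3843, 3197 and 3384 and Cdkn2c at 463, 417 and 418. Cdkn2a, a classic Polycomb target, read 96.1, 93.7 and 125 and Cdkn1a (p21) 159, 199.5 and 171.

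Of the BCL2 family, 7 of 14 were above background, beside 39.8% of all genes. The survival protein Mcl1 read 10599.7, 10351 and 10537, Bcl2 2249.7, 4294 and 3642 and its antagonist Bcl2l11 (Bim) 1796, 2254 and 2478. Bcl2 and Bcl2l11 were lowest in replicate 1.

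The Polycomb machinery was present at moderate levels. Of the 12 measured genes of Polycomb repressive complex 2 and its accessory subunits, 11 were above background, beside 39.8% of all genes. The histone binding subunits Rbbp4 and Rbbp7, shared with other complexes, read 8674, 8634 and 9174 and 8074, 7733 and 8545, Suz12 2590.3, 2072 and 2519 and Eed 2398, 2447 and 2041. The alternative methyltransferase Ezh1 read 1449, 1411 and 1357, and Ezh2 583, 685 and 801, at rank 5547. Ezh2 values did not overlap those of Ezh1, but each gene's level came from a different probe set, so the order of the pair is of signals only. Jarid2, which helps recruit the complex, read 1309, 1259.7 and 1614, Phf19 510.5, 434 and 383, and Epop 115, 239 and 170.4, at background. Complex 1 subunits had 14 of 18 above background, among them Bmi1 at 1958, 3098 and 2522 and the ubiquitin ligase Rnf2 at 2733, 2492 and 2302. All 3 demethylases of the same mark were above it, Kdm6b at 1702, 1531 and 1473, Kdm6a at 978, 917 and 902 and the Y-linked Uty at 632, 668 and 528.

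Developmental regulators that Polycomb is known to silence in most adult cells were at background. Of the Hox genes, 1 of 33 was above it, Hoxa5 at 528, 389 and 521, and the median was 77.5. Of the other developmental targets, 1 of 34 was, Msx1 at 516, 557 and 631, at a median of 84.01. Pax6, an eye and brain regulator, read 181, 220.2 and 193, Gata6 178, 232 and 219.8 and Olig2 4.67, 23.6 and 13.7. These medians stood beside 84.5 for the tissue-restricted reference genes and 242 for all genes. The counts above background stood beside 2 of 66 reference genes and 39.8% of all genes.

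Of the sex-linked genes, 7 of 9 were above background, beside 39.8% of all genes. The members on the Y chromosome were so on every array. Eif2s3y read 2848, 2704 and 2632, Kdm5d 1043, 854 and 1046 and Uty 632, 668 and 528. The X-inactivation transcript Xist read 362, 354 and 353 on its brightest probe set, under background, and 51.6, 33.5 and 21.9 and 22.6, 57.5 and 36.6 on the others. All 3 arrays therefore carried Y-linked RNA.

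Promoter composition followed level across the transcriptome. Among 11720 genes with exactly 1 RefSeq promoter, the share with GGGCGG on either strand was 33.4% in the dimmest decile and 69.2% in the brightest, against 54.5% overall. For GGAAGT it was 19.4% and 33.3%, against 26.5% overall. TATAAA on the gene's strand went the other way, at 11.5% in the dimmest decile and 5.48% in the brightest, against 6.90% overall. CCAAT was found in 35.2% to 40.5% of every decile. The observed over expected CpG ratio had a median of 0.336 in the dimmest decile and 0.828 in the brightest. These shares describe genes and are not independent replicates, and a match of letters is no evidence of a bound factor.

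**Figure D4:**
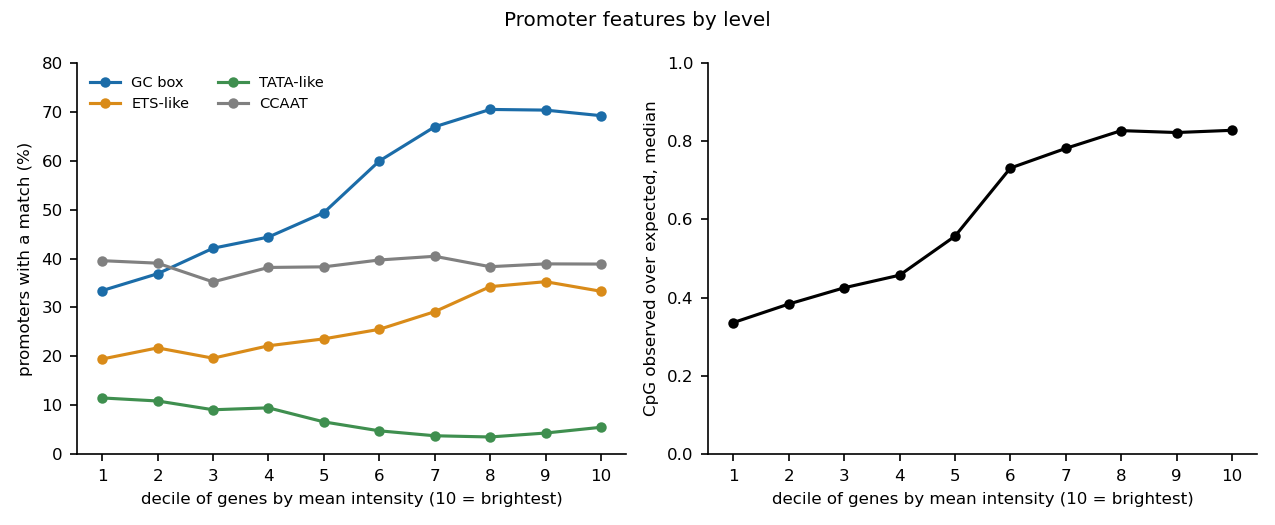
Share of promoters with each motif (left, %) and median CpG observed over expected ratio (right, no unit) by decile of genes ranked on mean intensity, over 11720 promoters of 300 bases. GC box shares and CpG rise from the dimmest to the eighth decile and level off, TATA-like shares fall over the same range, and CCAAT shares stay near 39%.

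Gene lists departed from that trend in both directions. Ribosomal protein promoters had a median CpG ratio of 0.936 and cell cycle promoters 0.944. The T cell receptor list, at a median intensity of 6672, had a ratio of 0.229 over the 12 of its 23 genes with a promoter here, below the median of the dimmest decile, with GGGCGG in 2 of 12 promoters and GGAAGT in 8 of 12. Gimap promoters were alike, at 0.252. In the opposite direction, the non-Hox developmental targets were dim and had a ratio of 0.804, with GGGCGG in 17 of 20, while the Hox genes had 0.593. Low ratios were not particular to bright T cell lists. MHC class II and dendritic cell markers had 0.225 and monocyte and macrophage markers 0.188, both largely at background. GGGCGG was in 1 of 12 and 5 of 11 of these promoters, and GGAAGT in 7 of 12 and 7 of 11. The tissue-restricted reference genes had 0.192, with GGAAGT in 10 of 43. A start of C followed by 4 pyrimidines, as in the oligopyrimidine tracts of ribosomal protein messages, was found in 9 of 35 ribosomal promoters and in 2.47% of all.

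The spread between arrays was small for most genes and fell with level. The median CV was 7.99% over the 7247 genes above background, with a 90th percentile of 17.8%, and 14.9% over all genes. By decile of level it fell from 43.9% in the second to 5.96% in the brightest. Of the genes above background, 62 (0.856%) differed over 2-fold between the highest and lowest array and 431 (5.95%) over 1.5-fold. Replicate 1 was the array farthest from the median for 42.2% of them, replicate 2 for 30.4% and replicate 3 for 27.4%.

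**Figure D5:**
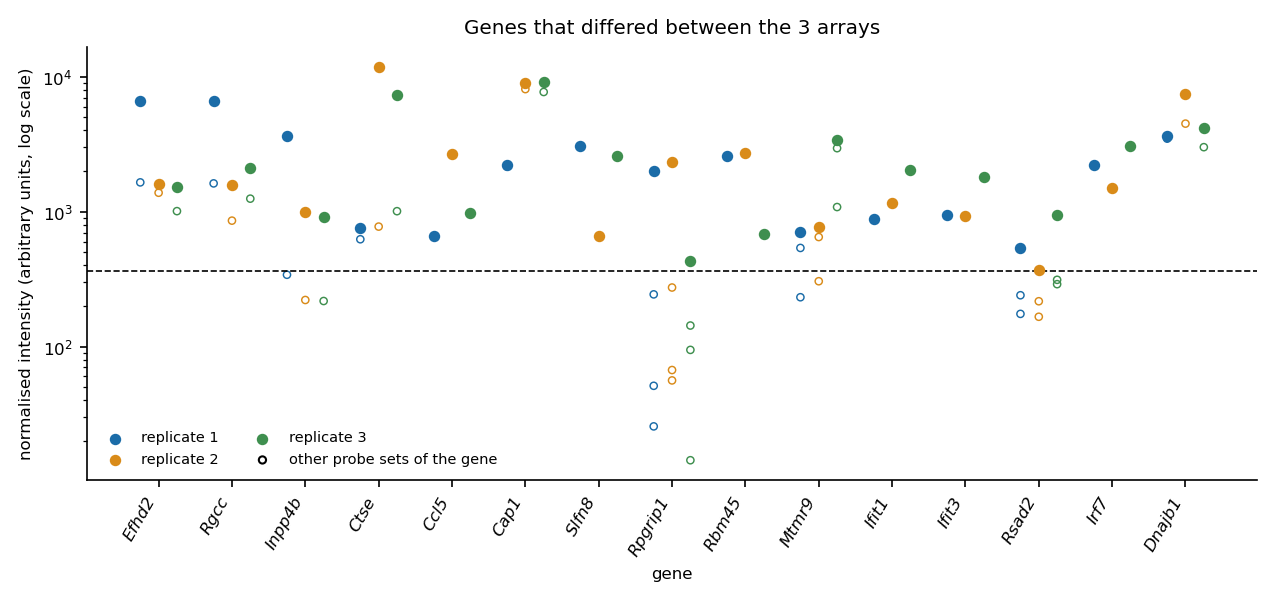
Normalised intensity (log scale) of 15 genes that differed between arrays, with filled points for the brightest probe set and open points for other probe sets of the same gene, coloured by replicate, and the background level of 365 as a dashed line. Efhd2, Rgcc and Inpp4b are high in replicate 1 only, Ctse and Cap1 low there, and Mtmr9 high in replicate 3 on all 3 of its probe sets.

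Genes that set a single array apart were few, and other probe sets of the same gene bore them out only in part. Mtmr9, a phosphatase relative, read 709.8, 766 and 3376, and its other probe sets read 538, 648 and 2951 and 232, 305 and 1081, so that all were highest in replicate 3. Cap1, an actin regulator, read 2226, 9050.4 and 9144 and 2160.0, 8086 and 7699, low in replicate 1 on both. Scpep1, a carboxypeptidase, read 882, 2438 and 2429 and 727, 1499.5 and 1338, with the same array lowest. By contrast Ctse, the protease cathepsin E, read 754, 11859.9 and 7287 on one probe set and 624, 774 and 1007 on another. Efhd2 read 6655, 1596 and 1524 and 1647, 1379.7 and 1008, and Inpp4b, a phosphoinositide phosphatase, 3634, 1001 and 912 and 340.3, 221 and 217. Rgcc, a cell cycle regulator, read 6612, 1573 and 2102 and 1618, 857 and 1247. For these last 4 genes the step in the brightest probe set was larger than in the other.

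Some uneven genes had no second named probe set to compare. Slfn8, of an interferon-induced family, read 3048, 655 and 2582, low in replicate 2, and Rbm45, an RNA binding protein, 2582, 2697 and 679, low in replicate 3. Dok2, an adaptor that restrains receptor signalling, read 2807, 1156 and 3207 and Clec2d, a ligand of a natural killer receptor, 4643, 2279 and 2569. The cause of these differences was not tested.

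At the other extreme, the steadiest genes with a mean of at least 1000 included the chromatin remodeller Smarca4 at 2268, 2264 and 2261, the nucleoside kinase Uck2 at 1267, 1269 and 1264 and the deubiquitinase Usp7 at 3495, 3484 and 3476. The CV was 0.16% for Smarca4 and 0.26% for Usp7. The proteasome assembly factor Psmg4 at 1306, 1309 and 1304 and the ribosomal protein Rpl11 at 20600.5, 20525 and 20635 were alike. All were picked for the lowest CVs among 4241 genes above background with a mean of at least 1000. With so few arrays, some CVs among so many genes can be this low by chance. Whether these genes are steady beyond the arrays used was not tested.

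How far a level depends on the probe set can be read from genes with several. Among 5140 genes above background with at least 2, the brightest probe set exceeded the dimmest by a median of 5.22-fold (quartiles 2.42 and 13.4), over 10-fold in 1610 (31.3%), and within 2-fold in 960 (18.7%). The brightest exceeded the next by a median of 2.12-fold. The widest gaps were in Sptbn1, a spectrin, from 8083 to 3.56, and Rps4x, from 26258 to 19.2. Cd8a read 9852, 9735 and 9149.9 on its brightest probe set and 1109.8, 902 and 954 on its dimmest. In 67.0% of these genes another probe set lay at or under the background level, where a ratio compares a signal with one not taken as above background. A rank is a property of the chosen probe set as well as of the gene.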

How the data were processed

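The deposited table holds 1 linear intensity per probe set and array, with a trimmed mean of 500.002 on each array. The software behind these intensities is not given in the sources used here. All 6 columns of the table were mapped to samples and 0 were left unmapped. The 3 Ezh2 fl/fl columns were quantile normalised on the linear scale. Gene symbols came from the platform annotation, which can be old, and a gene took its brightest probe set. The background level was the 95th percentile of 66 tissue-restricted genes. The 39 gene lists were matched by symbol or RefSeq synonym, with 942 of 1068 entries measured, and genes not measured are not analysed here.

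Members and lists were chosen with earlier results of these data known. Named genes were the 5 markers, the 40 brightest genes, the 8 brightest and 3 dimmest of each list or every gene of a list of up to 12, the 20 most and 10 least variable genes with a mean of at least 1000, 20 each way for the ratio of 1 array to the others, 10 for the ratio between probe sets, and defining markers of other cells. Genes named beyond that, such as Neurog1, Foxo1, Foxp3, Ifng, Il2, Il4, Il2ra, Il2rb, Mki67, Top2a, Cdk1, Isg20, Irf7, Cxcr3, Cxcr6, Dapl1, Ramp1, Slfn2, Icos, Cd44, Nr4a2, Nr4a3, Gzmk and Dnajb1, were chosen after their values were seen. No test between groups was made. Gene summaries were tested on simulated data, with Python 3.11.15, pandas 2.3.3, numpy 2.4.6 and scipy 1.17.1. Promoters came from RefSeq GRCm38.p6. Protein features were not run.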

Additional observations from a re-analysis of the deposited data

How the results depend on the processing

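The count of 7247 genes above background stayed between 6384 and 8398 under the other scalings, probe set choices and reference percentile tried, except with the highest bacterial control as the level, where it was 11290. It ranged from 7270 to 7495 with each array left out. The median spread of 7.99% was 8.26% on the deposited scale, and became 10.7% after median centring, 6.96% with the mean of all probe sets and 14.9% over all genes. With each array left out it ranged from 5.59% (without replicate 1) to 7.02%, over 2 arrays in place of 3. Of the 100 brightest genes, 91 were shared by every array, and 87 to 95 under the alternatives. The median ratio between probe sets of 5.22 became 4.19 over all genes, and was 5.19 to 5.29 with each array left out. The median percentiles of the 39 lists shifted by a median of 0.036 points on the deposited scale. They shifted by 2.60 points without probe sets ending in _s_at, _x_at or _a_at, where the ribosomal proteins fell from 99.9 to 79.8. Averaging probe sets lowered Cd8a from 9579 to 4793, an alternative chosen after the data were seen. Protein length was not run for want of sequences. No paired analysis was possible because a single group was described. Signals at or under the background level have no reliable order.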

Other observations

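Probe sets outside the named genes also carried signal. Of 9160 probe sets with no symbol, 1392 (15.2%) exceeded the background level on every array, against 11774 (33.7%) of those with 1 symbol, and 33 were brighter than the 100th brightest gene. Of 932 probe sets with several symbols, 431 (46.2%) exceeded it and 89 were that bright. The ranks in the report therefore leave out bright signals that carry no single name.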
